A study of Homo sapiens with 8 samples.

Results

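The aldo-keto reductases described here are 9 of the 57169 gene rows of a count table from 2 human colorectal cancer cell lines: AKR1A1, AKR1B1, AKR1B10, AKR1B15, AKR1C1, AKR1C2, AKR1C3, AKR7A2 and AKR7A3. Their rows were found by gene symbol. The genes themselves were selected on results of these same 8 libraries, so their differences are given as a description of size against replicate spread, and no p-value below is independent evidence for a difference. AKR1B15 had too few counts to enter the test, and the other 8 were tested among 21378 genes.

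The 4 groups were SW620 cells given AFZC, SW620 cells given 5-FU, HCT116 cells given AFZC and HCT116 cells given 5-FU, with 2 libraries in each and RNA taken at 24 h. HCT116 and SW620 are established lines, grown from a primary colorectal carcinoma and from a lymph node metastasis of a colon adenocarcinoma. 5-FU is 5-fluorouracil, a pyrimidine analogue that blocks thymidylate synthesis, and the labels do not spell out AFZC. Each line received each agent at its own IC50, given without a figure, so the doses may differ by line. Untreated cells were not analysed here, and every treatment difference below is therefore AFZC relative to 5-FU. Whether a group's 2 libraries stem from independent cultures is not stated, so each p-value reflects library-to-library spread alone, possibly of technical origin.

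Aldo-keto reductases are soluble enzymes that use NADPH to reduce aldehydes and ketones to alcohols, and they act on sugars, lipid peroxidation products, steroids, prostaglandins, retinaldehyde and drugs that carry a carbonyl group. Several human family genes, AKR1B10 and the AKR1C genes among them, are classic targets of NRF2, a transcription factor that binds antioxidant response elements once oxidative or electrophilic stress frees it from its repressor KEAP1. In the colon, AKR1B10 is a known enzyme of the normal epithelium.

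The 8 libraries held 31991561 to 40590291 counts each. Levels are CPM, counts per 1e+06 counts of a library, scaled by TMM factors that were 1.11 and 1.07 in the SW620 AFZC libraries, 0.867 and 0.816 in the SW620 5-FU libraries and 1.02 to 1.07 in HCT116. In every library 8 or 9 of 10 epithelial carcinoma markers had at least 10 counts, as the label colon cancer implies. Their summed level was 5516 and 5043 CPM in SW620 AFZC libraries, against 15216 and 16559 CPM in SW620 5-FU libraries. In HCT116 it was 7949 and 4889 CPM under AFZC, against 4332 and 3504 CPM under 5-FU. KRT8, the most abundant of the 10, had 2231 and 1643 CPM in SW620 AFZC libraries, against 7583 and 8337 CPM in SW620 5-FU libraries. EPCAM had 481 and 463 CPM there under AFZC, against 582 and 658 under 5-FU, and CDH1 overlapped between the agents. KRT20 went the other way in SW620, with 29.1 and 12.8 CPM under AFZC, against 2.31 and 2.42 under 5-FU. The leukocyte markers PTPRC and CD3E had 0 to 2 counts in every library. ITGAM, another leukocyte marker, had 334 and 264 counts in the HCT116 AFZC libraries and 0 and 22 in the HCT116 5-FU libraries. The summed level of the whole leukocyte list was 9.17 and 8.13 CPM in HCT116 AFZC libraries, against 0.548 and 1.15 CPM in HCT116 5-FU libraries. LUM, a fibroblast marker, had 749 to 1535 counts in the 4 SW620 libraries and 0 in the 4 HCT116 libraries. PDGFRB, also on the fibroblast list, had 61 to 352 counts in SW620, against 16 to 45 in HCT116. COL1A1 on that list went the other way, with 663 to 1002 counts in SW620, against 1516 to 2197 in HCT116. The summed level of the whole fibroblast list was 49.3 to 81.5 CPM in SW620, against 44.6 to 59.7 CPM in HCT116. The part of these shifts in the results below was not tested. In such bulk RNA, fewer cells that express a gene and less of its RNA per cell cannot be told apart.

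Levels per kilobase of exon (CPM per kb) divide by the length of all annotated exons of a gene. That length was 8765 bases for AKR1C1, 6461 for AKR1C2 and 4532 for AKR1C3, against 1781 for AKR7A2 and 1744 for AKR1B10. The orders below depend on it: in SW620 under AFZC, AKR1C3 was at 120 CPM and AKR7A2 at 51.2 CPM before this division. AKR1A1 and AKR7A2 were at 24.8 CPM per kb or more in all 4 groups, and AKR1C3 ranged from 0.884 to 48.4 CPM per kb. In SW620 under AFZC the order was AKR7A2 (28.7 ± 2.13 CPM per kb), AKR1A1 (26.6 ± 4.22), AKR1C3 (26.4 ± 5.15), AKR1B1 (13.5 ± 1.84), AKR1C1 (3.22 ± 0.436), AKR1C2 (3.17 ± 0.308) and AKR7A3 (1.48 ± 0.311; SD, n = 2 throughout). The first 3 of these lay within their spread of each other, as did AKR1C1 and AKR1C2. In SW620 under 5-FU AKR1C3 led at 48.4 ± 4.02 CPM per kb, ahead of AKR7A2 at 33.8 ± 1.10 and AKR1A1 at 33.6 ± 0.212, which lay within their spread of each other. In HCT116 under AFZC the order was AKR1A1 (30.7 ± 0.863 CPM per kb), AKR7A2 (24.8 ± 0.176), AKR1B1 (19.0 ± 0.886), AKR1B10 (5.93 ± 1.70), AKR1C3 (1.04 ± 0.0890) and AKR7A3 (0.965 ± 0.103), the last pair within their spread, with AKR1C1, AKR1C2 and AKR1B15 below 0.05. In HCT116 under 5-FU AKR7A2 (37.3 ± 3.92 CPM per kb) and AKR1A1 (34.8 ± 4.08) lay within their spread, AKR1B1 followed at 18.1 ± 1.71, and each of the other 6 was at 1.30 or less.

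**Figure D1:**
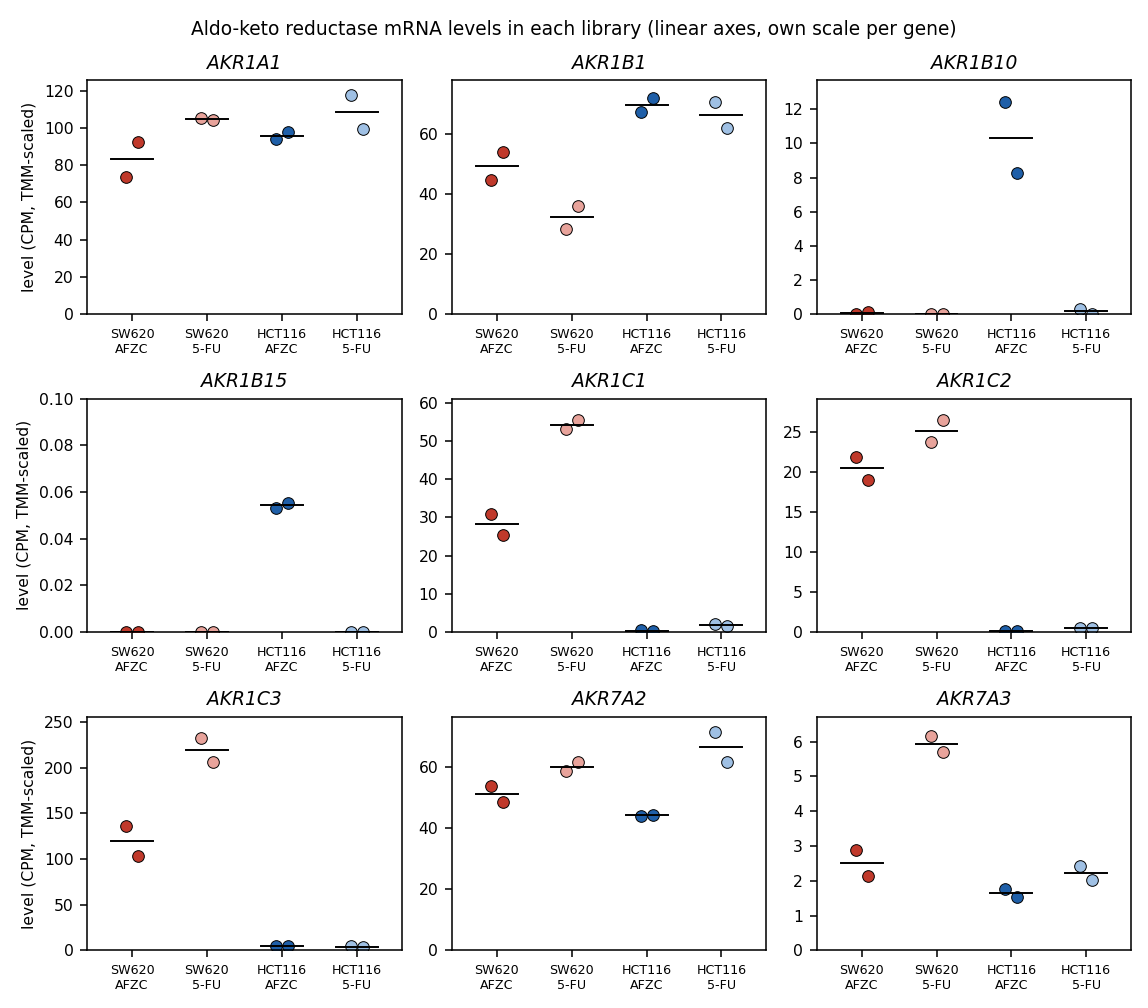
Level of each of the 9 genes in each library, in CPM on a linear axis of its own; points are libraries, the short line is the mean of the 2 libraries, and groups run from SW620 AFZC and SW620 5-FU to HCT116 AFZC and HCT116 5-FU. AKR1C1, AKR1C2 and AKR1C3 sat high in the 4 SW620 libraries and near 0 in the 4 HCT116 libraries, and AKR1B10 stood above 8 CPM only in the 2 HCT116 AFZC libraries.

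The 8 tested genes differed widely in how far they moved over the 4 groups. The gap between the highest and the lowest group mean was 7.46 on the log2 CPM scale for AKR1B10, 6.88 for AKR1C1, 6.85 for AKR1C2 and 5.77 for AKR1C3. It was 1.81 for AKR7A3, 1.13 for AKR1B1, 0.59 for AKR7A2 and 0.39 for AKR1A1. Summed over the 9 genes, the level was 364 and 345 CPM in SW620 AFZC libraries, 508 and 496 in SW620 5-FU libraries, 225 and 229 in HCT116 AFZC libraries and 269.7 and 230.5 in HCT116 5-FU libraries. The AKR1C genes gave 42.9 to 60.9% of the family's counts in the 4 SW620 libraries, against 2.16 to 2.73% in the 4 HCT116 libraries.

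The AKR1C genes reduce steroid ketones: AKR1C1 inactivates progesterone, AKR1C2 inactivates dihydrotestosterone, and AKR1C3 makes testosterone and a prostaglandin of the F series. They lie side by side on chromosome 10 (GRCh38): AKR1C1 at 4963253 to 4983283 on the plus strand, AKR1C2 at 4987400 to 5018031 on the minus strand and AKR1C3 at 5035354 to 5107686 on the plus strand. The coding sequences of AKR1C1 and AKR1C2 were 98.0% identical, with 19 of 972 bases different, and AKR1C3 was 91.5% identical to AKR1C1. Of all 50-base windows of its coding sequence, 53.5% for AKR1C1, 57.2% for AKR1C2 and 20.0% for AKR1C3 also occurred in another of the 9 genes. The first 120 coding bases (GENCODE 29) are shown because AKR1C1 and AKR1C2 differ there at 4 bases only, while AKR1C3 differs from AKR1C1 at 16; capitals mark bases that differ from AKR1C1, or, in AKR1C1 itself, from AKR1C2.
AKR1C1: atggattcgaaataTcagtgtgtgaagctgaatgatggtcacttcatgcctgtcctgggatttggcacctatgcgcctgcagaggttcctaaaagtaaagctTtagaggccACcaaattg
AKR1C2: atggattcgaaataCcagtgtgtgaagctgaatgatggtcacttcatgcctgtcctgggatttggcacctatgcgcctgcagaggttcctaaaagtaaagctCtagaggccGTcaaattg
AKR1C3: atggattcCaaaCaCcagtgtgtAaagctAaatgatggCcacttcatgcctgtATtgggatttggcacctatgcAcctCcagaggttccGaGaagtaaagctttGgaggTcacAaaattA
How the authors treated reads that match more than 1 gene is not given in the sources used here, so the split of counts among the 3 genes is uncertain, and their sum is given beside it.

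The AKR1C genes were expressed many-fold higher in SW620 than in HCT116 under both agents. AKR1C1 had 30.9 and 25.5 CPM in SW620 AFZC libraries, against 0.451 and 0.361 CPM in HCT116 AFZC libraries. Under 5-FU it had 53.1 and 55.4 CPM in SW620, against 2.19 and 1.71 CPM in HCT116. The lines did not overlap, and AKR1C1 was 68.9-fold higher in SW620 under AFZC (log2 difference 6.11 ± 0.27 SE, adjusted p = 3.34e-09, edgeR's quasi-likelihood test) and 27.8-fold higher under 5-FU (4.80 ± 0.23, adjusted p = 5.1e-09). AKR1C2 had 21.9 and 19.1 CPM in SW620 AFZC libraries and 23.8 and 26.5 in SW620 5-FU libraries, against 0.186 and 0.139 in HCT116 AFZC libraries and 0.490 and 0.505 in HCT116 5-FU libraries. It was 123-fold higher in SW620 under AFZC (6.94 ± 0.33, adjusted p = 5.01e-09) and 50.1-fold higher under 5-FU (5.65 ± 0.29, adjusted p = 7.7e-09). AKR1C3, the most abundant of the 3, had 136 and 103 CPM in SW620 AFZC libraries and 232 and 206 in SW620 5-FU libraries, against 5.01 and 4.44 in HCT116 AFZC libraries and 4.67 and 3.34 in HCT116 5-FU libraries. It was 25.3-fold higher in SW620 under AFZC (4.66 ± 0.22, adjusted p = 4.6e-09) and 54.7-fold higher under 5-FU (5.77 ± 0.23, adjusted p = 1.07e-09). With the 3 genes counted as a single row, the log2 difference between SW620 and HCT116 was 4.99 under AFZC and 5.53 under 5-FU.

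Under AFZC relative to 5-FU, AKR1C1 fell in both lines, AKR1C3 fell in SW620 and AKR1C2 fell in HCT116. In SW620 the AKR1C1 values above were 1.92-fold lower under AFZC (log2 fold change -0.94 ± 0.19, adjusted p = 0.00537, edgeR's quasi-likelihood test). AKR1C3 was 1.83-fold lower (-0.87 ± 0.18, adjusted p = 0.00592), with no overlap between the agents. AKR1C2 in SW620 had a log2 fold change of -0.30 ± 0.22 (95% interval -0.77 to 0.17, adjusted p = 0.376). In HCT116, AKR1C1 was at 17 and 13 counts in AFZC libraries, against 76 and 61 in 5-FU libraries. This fall was 4.77-fold (log2 fold change -2.25 ± 0.28, adjusted p = 0.000631), and the pooled counts gave 4.79-fold (95% exact interval 3.21 to 7.37, counting error only). AKR1C2 in HCT116 had 7 and 5 counts under AFZC, against 17 and 18 under 5-FU, a log2 fold change of -1.59 ± 0.40 (adjusted p = 0.0259). AKR1C3 in HCT116 had a log2 fold change of 0.24 ± 0.21 (95% interval -0.21 to 0.69, adjusted p = 0.536), and its agents overlapped. As 1 summed row the AKR1C genes fell in SW620 (-0.83, adjusted p = 0.00614) and had a log2 fold change of -0.29 in HCT116 (adjusted p = 0.401). The AKR1C2 call in HCT116 was lost without any 1 of the 4 HCT116 libraries (adjusted p 0.0937 to 0.133) and with the HCT116 groups fitted alone (0.170). In SW620, scaling by library totals alone gave -0.56 for AKR1C1 (adjusted p = 0.0544) and -0.49 for AKR1C3 (0.0686), and AKR1C1 had an adjusted p of 0.0574 without SW620 5-FU replicate 2.

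**Figure D2:**
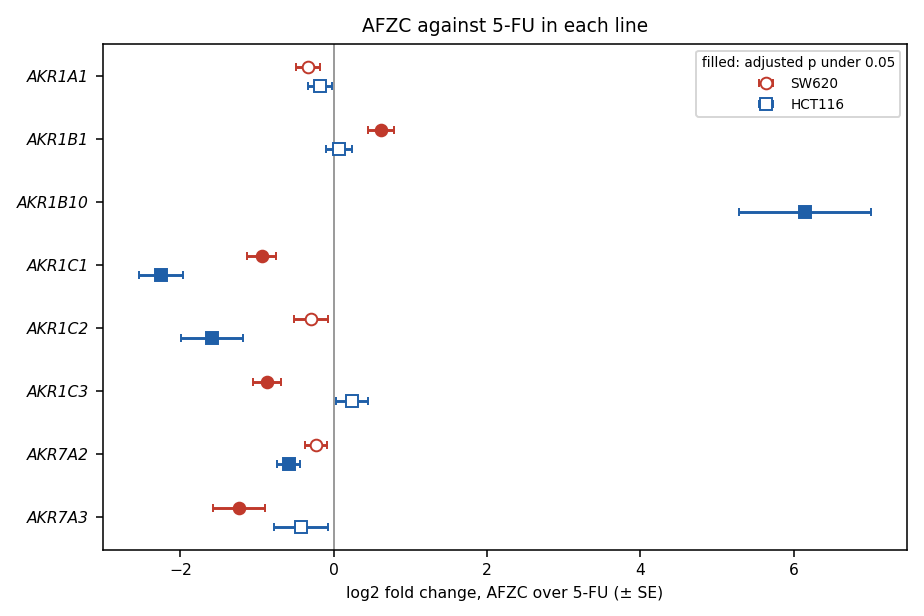
Log2 fold change of AFZC over 5-FU with its standard error for each tested gene in SW620 (circles) and HCT116 (squares); filled symbols have an adjusted p under 0.05. AKR1B10 in HCT116 stands at 6.14, and AKR1C1 lies below 0 in both lines, at -0.94 in SW620 and -2.25 in HCT116. AKR1B10, with 3 and 0 counts in SW620, has no SW620 point.

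The effect of AFZC on AKR1C1 and on AKR1C3 differed between the lines in opposite directions. The SW620 log2 fold change minus the HCT116 one was 1.31 ± 0.35 for AKR1C1 (adjusted p = 0.0327, edgeR's quasi-likelihood test) and -1.11 ± 0.28 for AKR1C3 (adjusted p = 0.0251). For AKR1C2 it was 1.30 ± 0.46 (adjusted p = 0.0956), and 1.66 with library totals alone (0.0344). The AKR1C1 difference was lost without any 1 of 6 of the 8 libraries (adjusted p 0.0563 to 0.138; it held only without HCT116 5-FU replicate 2 and without SW620 AFZC replicate 2). The AKR1C3 difference was lost without HCT116 AFZC replicate 1 (0.0645), HCT116 5-FU replicate 2 (0.129) or SW620 5-FU replicate 1 (0.0748) and with library totals alone (-0.76, adjusted p = 0.100). Summed to 1 row, the 3 genes gave a difference of -0.54 (adjusted p = 0.220), the opposite sign to that of AKR1C1 alone.

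The mix of the 3 genes differed between the agents in HCT116, where AKR1C3 took a larger share under AFZC and AKR1C1 a smaller one. In HCT116, AKR1C1 gave 7.98% and 7.30% of the AKR1C counts in AFZC libraries (95% exact intervals 4.72 to 12.5 and 3.95 to 12.2), against 29.8% and 30.8% in 5-FU libraries (24.3 to 35.8 and 24.5 to 37.7). AKR1C3 gave 88.7% and 89.9% under AFZC, against 63.5% and 60.1% under 5-FU. AKR1C2 gave 3.29% and 2.81% under AFZC, against 6.67% and 9.09% under 5-FU. In SW620 the AKR1C1 share was 16.4% and 17.3% under AFZC, against 17.2% and 19.2% under 5-FU. The AKR1C2 share in SW620 was 11.6% and 12.9% under AFZC, against 7.70% and 9.18% under 5-FU. These shares need no scaling between libraries, and their difference between the agents was not tested.

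**Figure D3:**
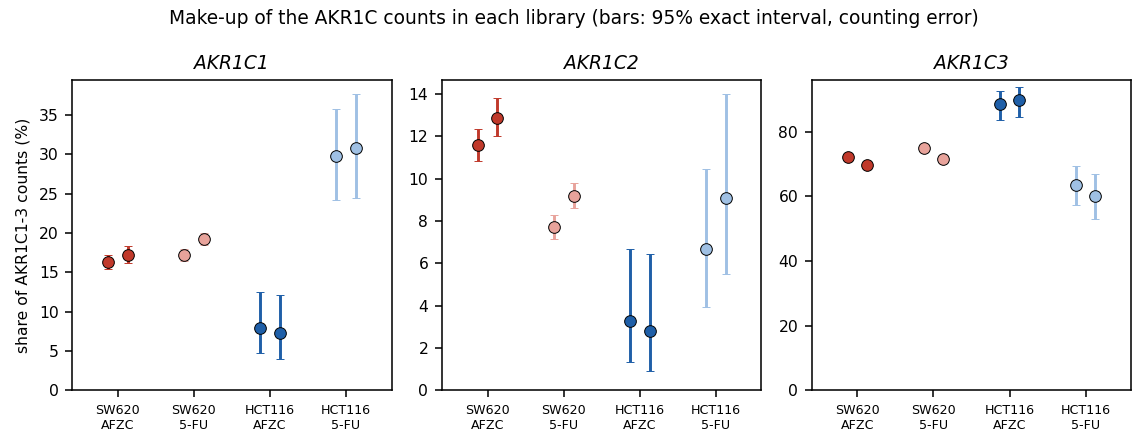
Share of the summed AKR1C1, AKR1C2 and AKR1C3 counts that each gene took in each library, in percent, with 95% exact intervals that cover counting error only. In HCT116 the AKR1C1 share was 7.98 and 7.30% under AFZC, against 29.8 and 30.8% under 5-FU; in SW620 all 4 libraries lay between 16.4 and 19.2%.

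The 250 bases before the RefSeq start of AKR1C1 and of AKR1C2 (GRCh38) are shown because these starts share nearly all of their sequence although the genes point in opposite directions: 245 of 246 aligned bases were identical, and capitals mark bases with no identical partner. AKR1C1 is at chr10:4963165-4963414 on the plus strand and AKR1C2 at chr10:5003858-5004107 on the minus strand. Both windows lie partly or wholly inside the gene spans given above, which cover all annotated transcripts.
AKR1C1: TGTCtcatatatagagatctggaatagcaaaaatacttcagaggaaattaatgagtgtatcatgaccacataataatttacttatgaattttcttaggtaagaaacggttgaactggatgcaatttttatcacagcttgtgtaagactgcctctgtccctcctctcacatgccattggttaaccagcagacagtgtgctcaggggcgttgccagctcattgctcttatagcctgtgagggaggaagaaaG
AKR1C2: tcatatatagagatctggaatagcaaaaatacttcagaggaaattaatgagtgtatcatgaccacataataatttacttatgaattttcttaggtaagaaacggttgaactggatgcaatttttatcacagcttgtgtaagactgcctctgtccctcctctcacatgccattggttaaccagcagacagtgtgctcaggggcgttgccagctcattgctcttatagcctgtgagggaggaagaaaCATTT
The AKR1C3 promoters were 76.8% and 78.6% identical to that of AKR1C1. The core of the antioxidant response element, searched as TGACNNNGC on both strands, did not occur in the promoter windows of the AKR1C genes, and neither did the AP-1 element searched as TGANTCA. Sequence outside these windows of 250 bases was not searched, so elements elsewhere may have been missed.

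Of the AKR1B genes, AKR1B10 was far higher in the HCT116 AFZC libraries than in all others. AKR1B10 reduces retinaldehyde and lipid aldehydes, AKR1B1 is aldose reductase, which turns glucose into sorbitol, and AKR1B15 is the closest relative of AKR1B10. On chromosome 7 (GRCh38), AKR1B1 is at 134442350 to 134459284 on the minus strand, AKR1B10 at 134527592 to 134541408 and AKR1B15 at 134549136 to 134579875, both on the plus strand, with 7727 bases between the last pair. AKR1B10 and AKR1B15 were 93.5% identical over their coding sequence, and 19.7% of the 50-base windows of AKR1B10 also occurred in another of the 9 genes. Coding bases 301 to 420 of AKR1B10 (GENCODE 29) are shown because here it can be told from AKR1B15; capitals mark the 7 bases that differ from it.
AKR1B10: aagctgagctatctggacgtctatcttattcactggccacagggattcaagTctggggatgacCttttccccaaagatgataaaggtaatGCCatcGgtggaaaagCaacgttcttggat

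AKR1B10 had 0 and 3 counts in SW620 AFZC libraries and 0 and 0 in SW620 5-FU libraries. In HCT116 it had 469 and 297 counts under AFZC (12.4 and 8.24 CPM), against 10 and 0 counts under 5-FU (0.288 and 0 CPM). Both HCT116 AFZC libraries thus lay far above the other 6. AKR1B10 rose under AFZC in HCT116 (log2 fold change 6.14 ± 0.86, adjusted p = 0.00275, edgeR's quasi-likelihood test), and the pooled 766 against 10 counts gave 73.0-fold, with a 95% exact interval of 39.5 to 153 that covers counting error only and not the spread between the 10 and 0 counts of the 5-FU libraries. Without HCT116 5-FU replicate 2, which had 0 counts, the log2 fold change was 5.13 (adjusted p = 0.0153), and DESeq2 gave 6.15 with an adjusted p of 0.209. Without HCT116 5-FU replicate 1 the 5-FU side had 0 counts, and the fitted 11.49 (adjusted p = 0.00745) depends on the prior count. Under AFZC, the pooled 3 counts in SW620 against 766 in HCT116 were 247-fold lower (84.2 to 1200.3), counting error only. Under 5-FU there were 0 counts in SW620 and 10 in HCT116, all 10 from 1 library, and no fold change is given. Whether the AFZC effect on AKR1B10 differed between the lines could not be estimated, since SW620 had 3 counts against 0. ITGAM, described above, was also high only in the HCT116 AFZC libraries. AKR1B15 had 2 and 2 counts in HCT116 AFZC libraries and 0 in the other 6, too few for a fold change.

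AKR1B1 had 44.5 and 54.0 CPM in SW620 AFZC libraries, against 28.2 and 36.1 CPM in SW620 5-FU libraries, and the agents did not overlap. It rose 1.53-fold under AFZC (log2 fold change 0.62 ± 0.17, adjusted p = 0.0257, edgeR's quasi-likelihood test). In HCT116 it had 67.3 and 71.9 CPM under AFZC, against 70.7 and 61.9 under 5-FU, a log2 fold change of 0.07 ± 0.17 (95% interval -0.30 to 0.44, adjusted p = 0.859). The difference between the lines' effects was 0.55 ± 0.24 (adjusted p = 0.181), and 0.90 with library totals alone (0.022). AKR1B1 was lower in SW620 than in HCT116, by a log2 difference of -0.50 ± 0.17 under AFZC (adjusted p = 0.0276) and -1.04 ± 0.17 under 5-FU (adjusted p = 0.000223). The SW620 rise was lost without SW620 AFZC replicate 2 (0.47, adjusted p = 0.119) or SW620 5-FU replicate 1 (0.45, 0.214). The line difference under AFZC was lost without HCT116 AFZC replicate 2 (adjusted p = 0.104), without SW620 AFZC replicate 1 (0.174) and with the 2 groups fitted alone (0.0518).

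The AKR7A genes encode aflatoxin aldehyde reductases, and AKR7A2 also reduces succinic semialdehyde, a product of the neurotransmitter GABA. They lie on the minus strand of chromosome 1 (GRCh38), AKR7A3 at 19282558 to 19289250 and AKR7A2 at 19303965 to 19312146, and their coding sequences were 92.2% identical. AKR7A3, the scarcer of the pair, had 2.90 and 2.15 CPM in SW620 AFZC libraries, against 6.16 and 5.71 CPM in SW620 5-FU libraries. This fall was 2.35-fold (log2 fold change -1.23 ± 0.34, adjusted p = 0.0236, edgeR's quasi-likelihood test). In HCT116 AKR7A3 had 1.78 and 1.53 CPM under AFZC, against 2.42 and 2.02 under 5-FU (-0.43 ± 0.35, 95% interval -1.18 to 0.32, adjusted p = 0.500). Between SW620 and HCT116 its log2 difference was 0.61 ± 0.35 under AFZC (adjusted p = 0.161), and under 5-FU it was 2.67-fold higher in SW620 (1.42 ± 0.34, adjusted p = 0.0034). The SW620 fall was lost without SW620 AFZC replicate 2 (adjusted p = 0.102), SW620 5-FU replicate 1 (0.104) or replicate 2 (0.0965), and with library totals alone (-0.85, 0.0874).

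AKR7A2 had 53.8 and 48.5 CPM in SW620 AFZC libraries, against 58.7 and 61.5 in SW620 5-FU libraries (log2 fold change -0.23 ± 0.15, 95% interval -0.56 to 0.09, adjusted p = 0.308). In HCT116 it had 43.9 and 44.4 CPM under AFZC, against 71.4 and 61.5 CPM under 5-FU. The HCT116 fall was 1.51-fold (-0.59 ± 0.15, adjusted p = 0.0261, edgeR's quasi-likelihood test), and it was lost without any 1 of the 4 HCT116 libraries (adjusted p 0.0504 to 0.239). The difference between the lines' effects was 0.36 ± 0.21 (adjusted p = 0.321; 0.71 and 0.0437 with library totals alone). The lines themselves were close, with log2 differences of 0.21 under AFZC (adjusted p = 0.259) and -0.15 under 5-FU (0.431; 0.0232 with library totals alone). The 250 bases upstream of AKR7A2 (RefSeq, GRCh38.p14, chr1:19312147-19312396, minus strand) are shown because among the 7 genes with a promoter in the RefSeq table this was the only one with the antioxidant response element core; capitals mark its 3 matches, which do not overlap.
AKR7A2: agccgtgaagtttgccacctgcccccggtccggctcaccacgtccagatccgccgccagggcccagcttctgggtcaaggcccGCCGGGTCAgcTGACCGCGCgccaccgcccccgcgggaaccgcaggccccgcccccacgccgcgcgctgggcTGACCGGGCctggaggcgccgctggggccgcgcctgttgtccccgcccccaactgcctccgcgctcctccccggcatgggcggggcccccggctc
The core, TGACNNNGC on either strand, occurred in 10.9% of all 35116 promoters of this length and in a promoter of 13.2% of 27305 genes. TGANTCA, the AP-1 element, occurred in 6.57% of these promoters and in a promoter of 8.06% of these genes. It occurred in none of the family's promoters. A match describes these letters and is not evidence of binding. AKR1B10 and AKR1B15 had no matched promoter.

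AKR1A1, a broad aldehyde reductase whose mouse form serves ascorbate synthesis, lies on the plus strand of chromosome 1 at 45550543 to 45570049 (GRCh38) and was the steadiest of the 8. It had 73.8 and 92.5 CPM in SW620 AFZC libraries, against 105.5 and 104.6 CPM in SW620 5-FU libraries (log2 fold change -0.34 ± 0.16, 95% interval -0.68 to 0.00, adjusted p = 0.158). In HCT116 it had 94.0 and 97.8 CPM under AFZC, against 117.5 and 99.6 under 5-FU (-0.18 ± 0.16, 95% interval -0.52 to 0.16, adjusted p = 0.537). The agents did not overlap in either line. SW620 and HCT116 differed by -0.21 on the log2 scale under AFZC (adjusted p = 0.299) and -0.05 under 5-FU (0.815).

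**Figure D4:**
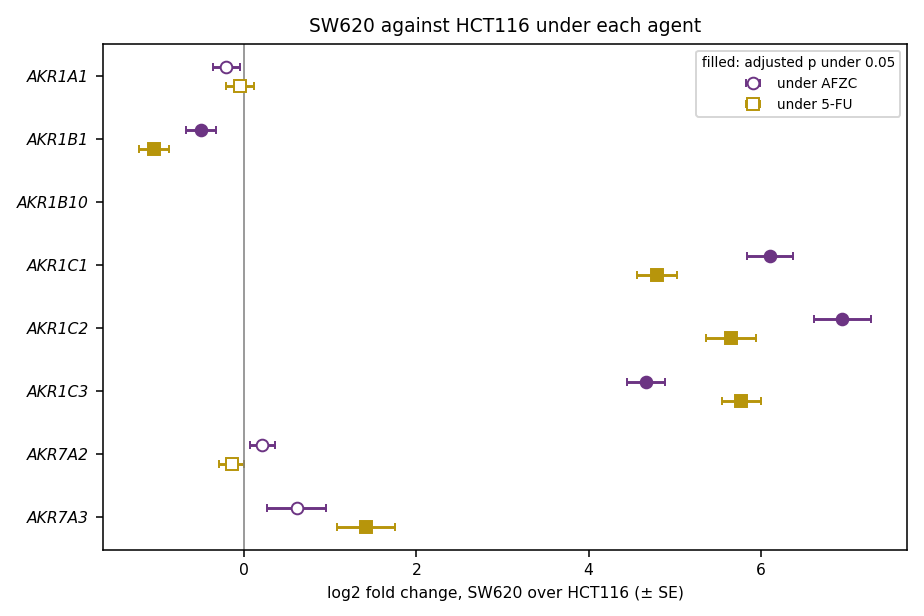
Log2 difference of SW620 over HCT116 with its standard error for each tested gene under AFZC (circles) and under 5-FU (squares); filled symbols have an adjusted p under 0.05. AKR1C1, AKR1C2 and AKR1C3 lie between 4.66 and 6.94, while AKR1A1 and AKR7A2 lie between -0.21 and 0.21; AKR1B10, with 3 and 0 counts in SW620, has no point.

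Counted over the 8 tested genes, 1 was higher and 3 were lower under AFZC than under 5-FU in SW620, where 11.6% of all tested genes were called higher and 6.95% lower. In HCT116 1 was again higher and 3 lower, where 5.87% of all tested genes were called higher and 3.74% lower. The median log2 fold change of the 8 was -0.32 in SW620, against 0.03 over all tested genes, and -0.30 in HCT116, against 0. The difference of the effects was called above 0 for 1 gene and below 0 for 1, where 5.65% of all tested genes were called above and 4.14% below. Between the lines, 3 genes were higher and 2 lower in SW620 under AFZC (25.1% and 24.2% of all tested genes), and 4 were higher and 1 lower under 5-FU (26.5% and 28.2%). Because the genes were chosen with these contrasts known, nothing is read from the counts. In SW620 the scaling mattered: with library totals alone, which moved the median of all genes by 0.38 on the log2 scale, the same list had 1 gene higher and 0 lower and a median of 0.06, and AKR1A1, AKR1C2 and AKR7A2 turned from negative values to 0.04, 0.08 and 0.15.

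The rest of the superfamily was a list of 8 genes, and 6 of them could be tested. Over all tested genes, 11.6% were called higher and 6.95% lower under AFZC in SW620, and 5.87% and 3.74% in HCT116. Of the 6, none passed the threshold for AFZC against 5-FU in either line with edgeR's quasi-likelihood test. At an unadjusted p under 0.05, 2 were higher in SW620 and 1 in HCT116; DESeq2 called 0 in SW620 and 1, KCNAB2, higher in HCT116, and with library totals alone 2 passed in SW620, among them AKR1E2 (1.08, adjusted p = 0.0184). Of the rest, AKR1D1 and AKR1C8P had 6 counts or fewer in every library and were not tested, and AKR7L, an AKR7A relative, had 35 to 75 counts per library. AKR1C4, a liver enzyme of bile acid and steroid metabolism, had 60 and 63 counts in SW620 AFZC libraries and 29 and 32 in SW620 5-FU libraries, against 1 and 0 in HCT116 AFZC libraries and 2 and 0 in HCT116 5-FU libraries. The pooled counts were 127-fold higher in SW620 under AFZC (22.4 to 5063) and 34.5-fold higher under 5-FU (9.15 to 291). So the fourth AKR1C gene differed between the lines in the same direction as the other 3. Within SW620 its pooled counts were 1.76-fold higher under AFZC (1.28 to 2.43), while AKR1C1 and AKR1C3 fell. These 95% exact intervals cover counting error only. Reads shared between AKR1C4 and the other 3 were not examined. AKR1E2 was at 8.09 ± 0.348 CPM in SW620 AFZC libraries and 4.97 ± 0.231 in SW620 5-FU libraries, against 2.25 ± 0.119 in HCT116 AFZC libraries and 2.37 ± 0.298 in HCT116 5-FU libraries (SD, n = 2). It was higher in SW620 under AFZC (log2 difference 1.84 ± 0.30, adjusted p = 0.00023) and under 5-FU (1.06 ± 0.30, adjusted p = 0.00871). KCNAB2, a potassium channel subunit with the same fold, was also higher in SW620, by 1.10 ± 0.16 under AFZC (adjusted p = 8.17e-05) and 1.78 ± 0.16 under 5-FU (adjusted p = 1.14e-06). KCNAB1, another such subunit, went the other way under AFZC, with 61 and 66 counts in SW620, against 193 and 129 in HCT116 (-1.29 ± 0.36, adjusted p = 0.00932), and had a log2 difference of -0.71 ± 0.35 under 5-FU (adjusted p = 0.108). KCNAB3, a further such subunit, had 40 and 121 counts in SW620 AFZC libraries, against 33 and 21 in SW620 5-FU libraries. Its log2 fold change of AFZC over 5-FU in SW620 ran from 0.35 to 1.94 over the alternative settings. In HCT116 it had 38 and 59 counts under AFZC, against 64 and 77 under 5-FU. Over all tested genes, 25.1% were called higher and 24.2% lower in SW620 under AFZC, and 26.5% and 28.2% under 5-FU. Between the lines, 3 of the 6 tested genes were higher and 1 lower in SW620 under AFZC (0 lower without HCT116 AFZC replicate 1), and 3 higher and 0 lower under 5-FU (1 lower without either SW620 AFZC library, 2 with library totals alone).

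Beside the family, 29 genes of the NRF2 pathway outside it were followed, a list drawn up with earlier results of these data known. In SW620, 1 rose and 9 fell under AFZC relative to 5-FU, where 11.6% of all tested genes were called higher and 6.95% lower. The median log2 fold change over the 29 was -0.32 there. In HCT116, 1 rose and 2 fell (5.87% and 3.74% of all tested genes), with a median of 0.04. HMOX1, which degrades haem, rose in both lines, with 10.4 ± 2.30 CPM under AFZC and 5.30 ± 1.22 under 5-FU in SW620 (0.98 ± 0.25, adjusted p = 0.0185) and 31.8 ± 6.06 under AFZC and 14.8 ± 1.12 under 5-FU in HCT116 (1.10 ± 0.24, adjusted p = 0.0142). NQO1, a quinone reductase, fell in both, with 430 ± 67.4 CPM under AFZC and 872 ± 82.9 under 5-FU in SW620 (-1.02 ± 0.17, adjusted p = 0.00159) and 233 ± 4.37 under AFZC and 533 ± 4.47 under 5-FU in HCT116 (-1.20 ± 0.17, adjusted p = 0.00139). The export pump ABCC3 fell by 1.35 ± 0.19 in SW620 (adjusted p = 0.000423) and 0.84 ± 0.18 in HCT116 (adjusted p = 0.0141). The other 7 that fell in SW620 fell by 0.46 or more on the log2 scale, and among them was NFE2L2, which encodes NRF2 itself (-0.46 ± 0.14, adjusted p = 0.0401), while KEAP1 was at 0.58 ± 0.19 (adjusted p = 0.0516; 0.0435 with DESeq2). In HCT116, AKR1B10 and HMOX1 rose, while AKR1C1 and NQO1 fell. AKR1B10 was not called there with DESeq2, and any part of NRF2 in these changes was not tested. The HMOX1 call was lost without SW620 AFZC replicate 1 or SW620 5-FU replicate 1 in SW620 (adjusted p 0.104 and 0.137), and without HCT116 AFZC replicate 1 or either HCT116 5-FU library in HCT116 (0.121 to 0.133). The ABCC3 call in HCT116 was lost without the same 3 libraries (0.0533 to 0.117), and that of NFE2L2 without any 1 of the 4 SW620 or the 2 HCT116 5-FU libraries (0.0634 to 0.225) and with library totals alone (-0.09, 0.704). With library totals alone, 3 of the 29 rose and 4 fell in SW620, with a median of 0.05. Without SW620 AFZC replicate 1 or without SW620 5-FU replicate 2, 4 fell, and without SW620 5-FU replicate 1, 5 fell and 0 rose.

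**Figure D5:**
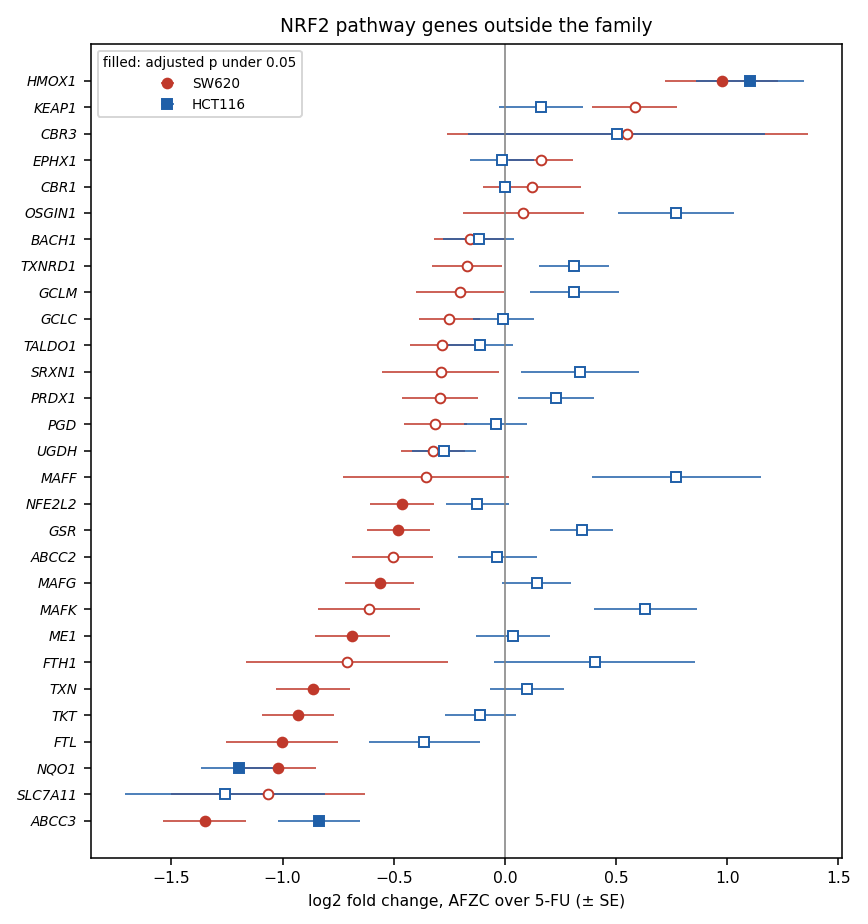
Log2 fold change of AFZC over 5-FU for 29 NRF2 pathway genes outside the family, in SW620 (circles) and HCT116 (squares), sorted by the SW620 value, with standard errors; filled symbols have an adjusted p under 0.05. HMOX1 is high in both lines, at 0.98 in SW620 and 1.10 in HCT116, and NQO1 and ABCC3 lie below 0 in both.

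A further 3 lists of genes that share the family's substrates were followed in the same way. The first held 20 genes of retinoid metabolism and signalling, the pathway of the AKR1B10 substrate retinaldehyde. Of these, 5 rose and 3 fell in SW620 (median -0.08), where 11.6% of all tested genes were called higher and 6.95% lower. In HCT116, 6 rose and 0 fell (median 0.45), where 5.87% of all tested genes were called higher and 3.74% lower. In SW620, 2 rose without SW620 AFZC replicate 1 or 5-FU replicate 1, 3 rose and 1 fell without SW620 5-FU replicate 2, and 3 rose without either HCT116 5-FU library; the median was 0.20 with library totals alone. In HCT116, 3 rose without HCT116 AFZC replicate 1, 1 without HCT116 5-FU replicate 1 and 2 without 5-FU replicate 2. DHRS3, which reduces retinaldehyde, went opposite ways, with 43.0 ± 5.58 CPM under AFZC and 87.2 ± 2.37 under 5-FU in SW620 (-1.02 ± 0.16, adjusted p = 0.000986) and 37.3 ± 3.01 under AFZC and 15.7 ± 0.875 under 5-FU in HCT116 (1.25 ± 0.16, adjusted p = 0.000749). DHRS9, a retinol dehydrogenase, rose in HCT116 (4.10 ± 1.10, adjusted p = 0.0375), a call lost without HCT116 AFZC replicate 1 (3.21, 0.331) or 5-FU replicate 1 (8.73, 0.0828) or 2 (3.10, 0.196) and with DESeq2 (0.419). ALDH1A2, which oxidises retinaldehyde to retinoic acid, rose in SW620 (3.50 ± 0.80, adjusted p = 0.00931), a call lost without SW620 5-FU replicate 1 (2.92, 0.0643). BCO1, which cleaves carotene to retinaldehyde, also passed in SW620 (3.59 ± 1.13, adjusted p = 0.043), but missed the threshold without any 1 of 7 of the 8 libraries (0.0538 to 0.256).

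Of 20 other genes of carbonyl and aldehyde detoxification, 2 rose and 1 fell in SW620 (11.6% and 6.95% of all tested genes), with a median of -0.12. In HCT116, 2 rose and 2 fell (5.87% and 3.74% of all tested genes), with a median of 0.03. In SW620, 6 rose and 0 fell with library totals alone (median 0.26), 0 rose without SW620 AFZC replicate 1 or either SW620 5-FU library, 0 fell without SW620 AFZC replicate 2 or 5-FU replicate 1, 2 fell without SW620 AFZC replicate 1, and 3 fell without either HCT116 AFZC library or with no filter. In HCT116, 0 rose and 0 fell without either HCT116 5-FU library, and 0 rose and 1 fell without HCT116 AFZC replicate 1. The mitochondrial aldehyde dehydrogenase gene ALDH2 fell in both lines, by 0.74 ± 0.18 in SW620 (adjusted p = 0.0118) and 0.71 ± 0.18 in HCT116 (adjusted p = 0.0242). The ALDH2 call was lost in SW620 without SW620 AFZC replicate 2 (adjusted p = 0.0607) or SW620 5-FU replicate 1 (0.0745) and with library totals alone (-0.36, 0.155), and in HCT116 without HCT116 AFZC replicate 2 or either HCT116 5-FU library (0.0511 to 0.240). ALDH1A1 rose by 2.97 ± 0.70 in SW620 (adjusted p = 0.013), but not past the threshold without SW620 AFZC replicate 1 (1.81, 0.125) or either SW620 5-FU library (0.105 and 0.0882). In HCT116 the xanthine dehydrogenase gene XDH rose by 3.07 ± 0.63 (adjusted p = 0.00957) and the glutathione transferase gene GSTA4 fell by 1.59 ± 0.33 (adjusted p = 0.0106), and without HCT116 AFZC replicate 1 or either HCT116 5-FU library neither passed (0.0954 to 0.126 for XDH, 0.0531 to 0.093 for GSTA4).

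Of 21 tested genes of prostaglandin and steroid metabolism, the field of the AKR1C enzymes, 3 rose and 3 fell in SW620, with a median of 0. In HCT116, 0 rose and 1 fell, with a median of -0.26. The shares of all tested genes called higher and lower were 11.6% and 6.95% in SW620 and 5.87% and 3.74% in HCT116. In SW620, 6 rose and 1 fell with library totals alone, 5 rose and 4 fell without SW620 AFZC replicate 2, and 1 fell, with 2 that rose, without SW620 AFZC replicate 1 or any 1 of the 4 5-FU libraries. In SW620 the prostaglandin E synthase gene PTGES (1.82 ± 0.40, adjusted p = 0.01; 1.55 and 0.0896 without SW620 5-FU replicate 1) and HPGD, which degrades prostaglandins, rose. HPGD (2.84 ± 0.92, adjusted p = 0.0483) missed the threshold without SW620 AFZC replicate 1 (2.00, 0.248), without SW620 5-FU replicate 2 (1.79, 0.213) and without either HCT116 5-FU library (0.088 and 0.0887). In HCT116, HSD17B4, a peroxisomal enzyme, fell by 0.47 ± 0.14 (adjusted p = 0.0498) and missed the threshold without any 1 of the 4 HCT116 libraries (0.108 to 0.271). Over the list in HCT116, at an unadjusted p under 0.05, 3 of the 21 were higher and 5 lower there, and DESeq2 called 2 higher and 2 lower. With edgeR, 2 rose there without HCT116 AFZC replicate 2 or either SW620 AFZC library, and 0 fell without HCT116 AFZC replicate 1 or any 1 of the 4 5-FU libraries.

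Across the 8 libraries, the genes whose log2 CPM ran most like that of AKR1B10, among 12970 genes of sufficient level, were TRIAP1 (Pearson r = 0.984), BLOC1S2 (0.979) and RPL23AP82 (0.970). TRIAP1 had 21.8 ± 5.17 CPM in SW620 AFZC libraries and 21.7 ± 2.92 in SW620 5-FU libraries, against 64.6 ± 7.98 in HCT116 AFZC libraries and 23.8 ± 4.06 in HCT116 5-FU libraries. The genes most like AKR1C1 were SCML1 (0.996), GNG4 (0.996) and RAPGEF4 (0.995), and those most like AKR1C2 were PTPRN2 (0.998), GNG4 (0.998) and AKAP17A (0.997). The 8 libraries fall into 4 groups of replicates and share their scaling, so these values describe a shared profile over 4 conditions.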

How the data were processed

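RNA-seq counts from 8 libraries were used. Per the labels' protocols, polyadenylated RNA was captured with oligo(dT) beads and sequenced on an Illumina instrument from libraries that do not keep the strand. The authors' deposited table holds unnormalized counts, 57169 rows by gene symbol. Per the submitters' processing notes, the build was GRCh38 and the tools included HISAT2 and STAR as aligners and featureCounts. The aligner used and the handling of multiply aligned reads were not given in the sources used here. In each library, 1.68 to 1.84 genes had exactly 2 counts for every gene with 1, as when both mates of a pair are counted, so counting intervals may be too narrow.

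Genes with too few counts were removed (edgeR's filterByExpr, minimum count 10), leaving 21378. edgeR 4.0.16 (R 4.3.3) fitted a quasi-likelihood model with 4 group means, TMM scaling and robust dispersion, and p-values were adjusted by Benjamini-Hochberg over all 21378 genes. A gene is called at an adjusted p under 0.05. Standard errors were derived from the fold change and its F statistic. CPM are counts per 1e+06 of the TMM-scaled library total. The fit was tested on simulated data. Alternatives were DESeq2 1.42.0, its size factors, library totals alone, no filter, groups fitted alone, a replicate block, paralog counts summed, and each library left out. Counting intervals are exact at 95%. No libraries were duplicates, and no value column was unmapped. Sequences came from GENCODE 29 transcripts and RefSeq promoters (7 of 9 genes matched).

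The genes and all gene lists were chosen with earlier results of these data known. Named were all 9 genes, the other superfamily genes, NFE2L2, KEAP1 and NQO1, from each other list the 2 called genes with the largest change in each line, and the 3 genes most alike in profile to each of the 3 most variable members. 1 gene of the NRF2 list is not reported here.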

Additional observations from a re-analysis of the deposited data

Results flagged for a closer look

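Among the aldo-keto reductases, the AFZC effect differed between the lines for AKR1C1 and AKR1C3 by the interaction term of edgeR's quasi-likelihood test. The SW620 log2 fold change minus that of HCT116 was 1.31 for AKR1C1 (adjusted p = 0.0327) and -1.11 for AKR1C3 (adjusted p = 0.0251). As described above, both calls depended on single libraries, and that of AKR1C3 was also lost with library totals alone. Summed to 1 row, the AKR1C genes gave -0.54, and the part of reads shared among them was not tested.

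Of the other genes named, DHRS3 differed by -2.27 (adjusted p = 0.000131), RAPGEF4 by 1.89 (0.00916), TRIAP1 by -1.43 (0.00966), BLOC1S2 by -1.18 (0.0134), HPGD by 4.85 (0.0283), ALDH1A2 by 3.92 (0.0289), SCML1 by 0.84 (0.0296) and RPL23AP82 by -1.07 (0.0415). The DHRS3 difference held without any 1 library. The TRIAP1 and RAPGEF4 differences were lost without HCT116 5-FU replicate 2 (adjusted p 0.066 and 0.0505), BLOC1S2 without either HCT116 5-FU library or SW620 5-FU replicate 2 (0.0555 to 0.0806), SCML1 without HCT116 AFZC replicate 2 or any 1 of the 4 5-FU libraries (0.0639 to 0.105), and RPL23AP82 without any 1 of 6 libraries (0.106 to 0.158). ALDH1A2 was lost without any 1 of 5 libraries (0.0679 to 0.095) and HPGD without any 1 of 5 (0.055 to 0.0995). The HPGD value was 10.44 without SW620 5-FU replicate 1 and 3.81 without replicate 2.

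The pseudogene AKR1C7P, outside the comparisons above, had 72 and 49 counts in SW620 AFZC libraries, against 6 and 13 in SW620 5-FU libraries, a log2 fold change of 2.48 ± 0.74 (adjusted p = 0.0343). The call was lost without any 1 of the 4 SW620 libraries (adjusted p 0.0513 to 0.2). The pooled counts gave 5.55-fold (3.40 to 9.53, counting error only). AKR1C1 and AKR1C3 fell in the same comparison.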

How the results depend on the processing

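Over the 8 tested genes and all contrasts, 547 values under an alternative stayed on their side of the threshold. Another 35 lost the call, 7 gained it and 1 reversed. The reversal set the AKR1C1 difference of effects against that of the summed AKR1C row, -0.54. In this tally the summed row stood in for each gene in it, so -0.54 is not an estimate for AKR1C1 alone. Uncalled values changed sign 6 times under another setting and 7 times with a library left out. With paralogs summed the AKR1C genes form 1 row, so fewer rows can be called. Among the 8 tested genes, those higher in HCT116 numbered 0 with DESeq2 and those lower 1 with paralogs summed. Those lower in SW620 numbered 0 with library totals alone. The difference of effects had 4 higher and 0 lower with library totals alone, and 0 higher and 0 lower with paralogs summed. Between the lines under AFZC, 1 was lower with groups fitted alone and 1 higher with paralogs summed; under 5-FU, 2 were lower with library totals alone or with no filter, and 2 higher with paralogs summed. With 1 library left out, genes lower numbered 1 to 3 in HCT116; in SW620, 0 to 1 higher and 1 to 3 lower. For the difference of effects, 0 to 1 were higher and 0 to 1 lower; between the lines, 1 to 2 were lower under AFZC and 1 to 2 under 5-FU. Over all genes, leaving 1 library out gave 1583 to 4437 calls in SW620 (3968 with all), 305 to 2723 in HCT116 (2054) and 757 to 2460 for the difference (2091). Library totals alone put the share of calls that were higher at 92.0% in SW620, against 62.6% with TMM, at 85.1% for the difference, against 57.7%, and at 35.6% between the lines under 5-FU, against 48.5%. Libraries with the same replicate number showed little shared deviation (correlations -0.10 to 0.10). Such values cannot exclude a weak shared effect, so whether the numbers pair the libraries is not known. With a replicate block, 3655 genes were called in SW620 and 1829 in HCT116, and no count of aldo-keto reductases changed. Depth limits AKR1B15, AKR1B10 in SW620 and in HCT116 under 5-FU, and AKR1C1 and AKR1C2 in HCT116, all at 76 counts or fewer per library. AKR7A3 was also low, with 55 to 84 counts per library in HCT116 and 77 to 189 in SW620.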
